A study of Homo sapiens with 4 samples.

Results

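Mitotic kinesins are motor proteins that build the spindle, move chromosomes along it and divide the cell. The 10 genes KIF11, KIF14, KIF15, KIF18A, KIF20A, KIF20B, KIF23, KIF2C, KIF4A and KIFC1 were taken by their symbols and followed through every probe set that the array annotation assigns to them. These genes, and the lists set beside them below, were chosen with earlier results of these data known. They had 15 probe sets of their own, of 49395 on the array and among 18132 annotated genes, and KIF4A shared 1 further probe set with its near copy KIF4B. RNA came from MDS-L, an IL-3 dependent human cell line from MDS, and SKM-1, a human leukemia cell line that arose from MDS. Each line received either the solvent DMSO or 1 μM DAC, a nucleoside analog that blocks DNA methylation, in 5 pulses of 24 h. The 4 conditions were each measured on 1 PrimeView array, so no condition was replicated and no p-value exists within a cell line. Both were grown in the same serum medium, and the labels give IL-3 as an addition for MDS-L.

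Kinesins turn ATP hydrolysis into movement along microtubules or into the dismantling of microtubule ends. Cells make most mitotic kinesins only as they approach division, because the genes are held silent early in the cycle and switched on late by transcription factor complexes that include FOXM1, MYBL2 and the MuvB core. Their RNAs are commonly used as markers of dividing cells. In RNA from a bulk culture, fewer cells in division and less of these RNAs in each cell cannot be told apart.

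The promoters of the 10 genes are shown first because the 2 elements that such late cell cycle genes typically carry can be read in them. RefSeq (GRCh38.p14) gave a window for 10 of 10 genes, from 250 bases before to 50 bases after the start of transcription. The letters TTTGAA or TTCGAA, known as the cell cycle genes homology region (CHR) and bound by MuvB complexes, were searched on both strands, as were CCAAT, the box bound by NF-Y, and TTTCGCGC or TTTGGCGC, forms of the E2F site. A CHR match lay in 8 of 10 windows, against 16.4% of all 34943 windows of that length, and all 8 had the form TTTGAA, which 15.2% of all windows hold. CCAAT lay in 8 of 10, against 34.6%, and the E2F letters in 1 of 10, against 1.14%. The windows held 19 to 35 CpG dinucleotides (median 29, against 14 over all windows), and no DNA methylation was measured here. Of all windows, 57.2% held fewer CpG than KIF20A, the lowest member, and 85.9% fewer than KIF15, the highest. Below, 120 bases before and 30 after the start are printed 5′ to 3′ in the direction of the gene, with every match of the 3 searches in capitals. All 6 lie on the plus strand, and a match to the other strand appears as its reverse complement, TTCAAA for the CHR and ATTGG for CCAAT.
KIF11: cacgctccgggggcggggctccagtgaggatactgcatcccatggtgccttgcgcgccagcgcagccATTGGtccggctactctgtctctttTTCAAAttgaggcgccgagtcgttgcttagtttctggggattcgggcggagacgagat
KIF15: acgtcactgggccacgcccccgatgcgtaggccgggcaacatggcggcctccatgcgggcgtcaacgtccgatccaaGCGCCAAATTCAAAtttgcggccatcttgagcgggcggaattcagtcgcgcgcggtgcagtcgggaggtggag
KIFC1: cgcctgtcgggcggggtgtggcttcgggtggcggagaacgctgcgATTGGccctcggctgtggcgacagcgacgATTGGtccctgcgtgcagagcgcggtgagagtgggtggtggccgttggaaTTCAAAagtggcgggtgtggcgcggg
KIF23: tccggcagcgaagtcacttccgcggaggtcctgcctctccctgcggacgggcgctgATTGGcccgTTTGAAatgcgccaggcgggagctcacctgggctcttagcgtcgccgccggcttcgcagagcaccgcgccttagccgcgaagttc
KIF20A: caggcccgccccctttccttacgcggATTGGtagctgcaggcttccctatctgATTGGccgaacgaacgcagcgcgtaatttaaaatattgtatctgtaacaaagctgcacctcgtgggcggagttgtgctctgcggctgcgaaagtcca
KIF2C: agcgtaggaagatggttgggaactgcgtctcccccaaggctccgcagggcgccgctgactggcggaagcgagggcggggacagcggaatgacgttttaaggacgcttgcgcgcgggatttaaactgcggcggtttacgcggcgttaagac
KIF11 (chr10:92593010-92593159) is shown because its profile was the closest to the median of the group, and it has a CCAAT box ahead of a CHR. KIF15 (chr3:44761674-44761823) had the largest difference after DAC, and its E2F letters run directly into the CHR. KIFC1 (chr6:33391703-33391852) differed from the others in SKM-1, and its CHR lies just after the start that its window uses. The KIFC1 gene itself begins at position 33391461, ahead of the window, so that start lies inside the gene. KIF23 (chr15:69414229-69414378) was the only member with a higher DMSO level in MDS-L than in SKM-1. KIF20A (chr5:138178992-138179141) had the largest gap between the cell lines and holds 2 CCAAT boxes with no CHR match. KIF2C (chr1:44739717-44739866) holds none of these letters, which says nothing of what binds there. The map of matches shows the same arrangement over the full windows.

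**Figure D1:**
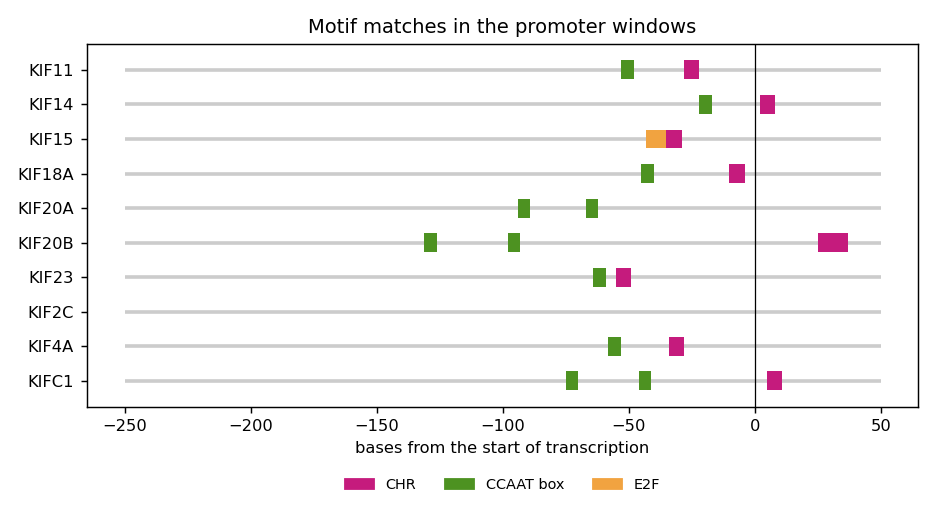
Matches of the CHR, CCAAT and E2F letters in the promoter windows of the 10 genes, by distance in bases from the start of transcription, with each bar as long as its match. The CHR matches begin between positions -55 and 31 from the start, and the KIF2C window has no match.

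The values are log2 expression values as deposited, and a difference of 1 is 2-fold. Background was set on each array at the 90th percentile of 359 olfactory receptor probe sets, whose genes are taken as silent here, and lay between 4.84 and 5.09. All 15 probe sets lay above this background on all 4 arrays, so no value of a member was raised to it. Higher cuts changed that for some members. When each array's median served as background, 3 members had values raised to it, and under the highest cut tried 5 did. KIF20A, KIFC1 and KIF15 read 5.56, 5.61 and 5.67 in MDS-L with DAC, under that array's median of 5.85. Their differences in MDS-L may therefore be bounds. As a check of the labels, 7 of 7 blood and myeloid markers were above background on at least 1 array of MDS-L, and 6 of 7 on at least 1 of SKM-1, where KIT was under it. PTPRC lay between 9.63 and 11.86 on the 4 arrays, CD34 and KIT were higher in MDS-L than in SKM-1, and MPO and SPI1 lower. ANPEP read 11.95 and 12.33 in MDS-L, and 5.96 and 6.83 in SKM-1. Of 7 markers of other cells, MDS-L had 5 above background, SKM-1 had 6, and the B cell gene MS4A1 was under it on all 4 arrays. The T cell gene CD3E lay between 5.02 and 5.45, just above background, the beta globin gene HBB between 6.43 and 7.97, and HLA-DRA read 13.21 and 12.99 in MDS-L but was under background in SKM-1 with DMSO. The endothelial and platelet gene PECAM1 read 10.42 and 10.76 in MDS-L and 6.21 and 6.29 in SKM-1. The epithelial gene KRT8 read 5.29 and 6.25 in MDS-L and 5.21 and 5.36 in SKM-1, COL1A1 of fibroblasts lay between 5.43 and 5.72, and EPCAM was under background in MDS-L and at 5.31 and 5.29 in SKM-1. The part of these markers in the kinesin values was not tested. Where a gene had several probe sets, their differences after DAC varied with a pooled standard deviation of 0.28 (MDS-L, 7609 genes) or 0.29 (SKM-1, 7642 genes). Variation between cultures is no part of this figure.

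In MDS-L cells, 10 of 10 mitotic kinesins were lower after DAC, by 1.86-fold to 4.51-fold, and 8 of 10 were at least 2-fold lower. Over all 12688 genes measured in MDS-L, 3.18% were lower by at least 2-fold and 3.62% were higher by that much. In SKM-1 cells, 9 of 10 were lower, but 0 of 10 reached 2-fold in either direction, where 1.43% of 12714 measured genes were at least 2-fold lower, 2.71% at least 2-fold higher and 45.2% lower at all. The members had a median log2 difference of -1.25 (MDS-L) and -0.25 (SKM-1), beside medians of 0.04 and 0.05 over all measured genes. Both all-gene medians lie above 0, so in each line fewer genes were lower than higher. With single arrays these are descriptions with no test. Because the members were chosen with earlier results of these data known, the all-gene shares are no independent yardstick for their counts. The count in MDS-L was 3 of 10 when the 99th percentile of the olfactory receptors served as background. In that setting 5 members had values raised to that level, and 3.04% of 9241 measured genes were at least 2-fold lower.

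**Figure D2:**
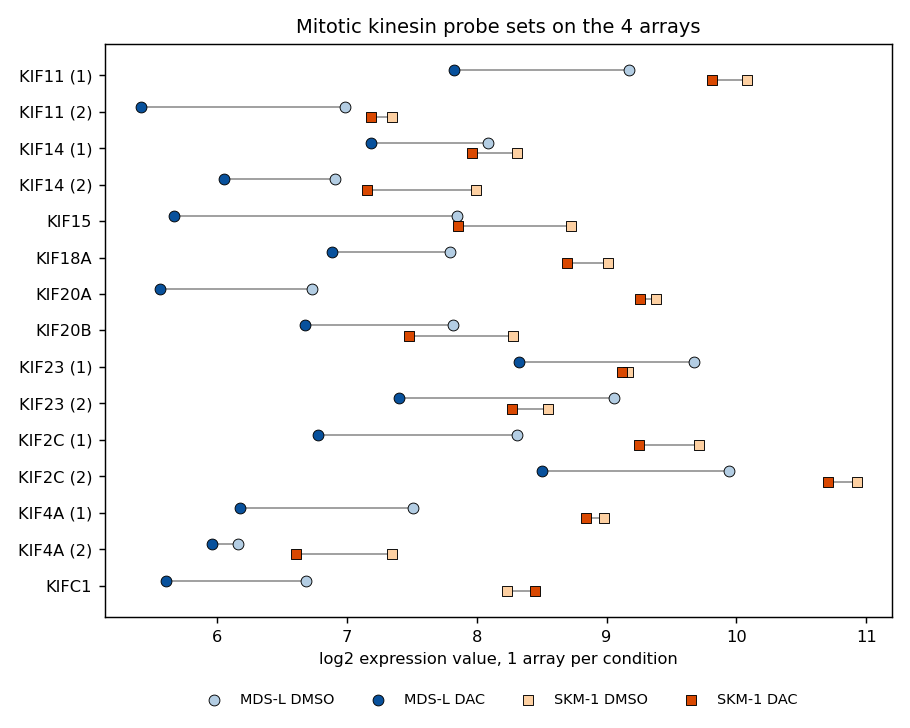
Log2 expression value (x axis) of each of the 15 probe sets of the mitotic kinesins on the 4 arrays, 1 array per condition; circles are MDS-L, squares SKM-1, dark symbols DAC, pale symbols DMSO, and a line joins the arrays of a cell line. The array of MDS-L with DAC is the lowest of the 4 for 15 of 15 probe sets, and the lines of MDS-L are longer than those of SKM-1 for most probe sets. The share of all probe sets lowest on that array was not counted, so this count has no baseline.

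KIF11 (Eg5) slides antiparallel microtubules apart and so separates the spindle poles. Its level was 9.17 in MDS-L with DMSO, 7.82 in MDS-L with DAC, 10.08 in SKM-1 with DMSO and 9.81 in SKM-1 with DAC. DAC went with a 2.55-fold lower value in MDS-L, against 1.21-fold in SKM-1. Both MDS-L values lay under both SKM-1 values. A second KIF11 probe set gave 2.98-fold and 1.12-fold lower values.

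KIF15, a plus-end motor that can take over the work of KIF11 in keeping the spindle bipolar, showed the largest difference of the group in both cell lines, though not in MDS-L with the 99th percentile background, where KIF2C did. Its level in MDS-L was 7.84 with DMSO against 5.67 with DAC, whereas SKM-1 read 8.73 and 7.85. These are 4.51-fold and 1.84-fold lower values. Counted from the most negative difference, KIF15 ranked at 19 of 12688 genes in MDS-L, and at 315 of 12714 in SKM-1. It has 1 probe set, whose suffix marks probes that match several transcripts, so it drops out when such probe sets are left out.

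KIFC1 (HSET) walks the other way, toward the minus end, and focuses the spindle poles. It was the only member with opposite signs in the cell lines. Its level went from 6.68 to 5.61 in MDS-L, 2.11-fold lower, and from 8.23 to 8.45 in SKM-1, 1.16-fold higher. The SKM-1 difference of 0.22 is smaller than the spread of 0.29 between probe sets of a gene.

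KIF18A damps the movements of microtubule plus ends at kinetochores and so helps chromosomes to line up. It read 7.79 and 6.89 in MDS-L with DMSO and DAC, and 9.01 and 8.69 in SKM-1. With a 1.87-fold lower value after DAC in MDS-L it was just short of 2-fold, and it was 1.25-fold lower in SKM-1.

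KIF2C (MCAK) does not walk but takes microtubule ends apart, which frees wrongly attached chromosomes. It read 9.94 and 8.50 in MDS-L with DMSO and DAC, and 10.93 and 10.70 in SKM-1, a 2.71-fold and a 1.17-fold lower value. Its other probe set was 2.90-fold and 1.38-fold lower. The difference in MDS-L was thus of like size in both KIF2C probe sets.

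KIF4A, a chromosome-bound motor that works with PRC1 to set the length of midzone microtubules, was the member whose probe sets disagreed most. The probe set with the higher level read 7.51 and 6.18 in MDS-L and 8.98 and 8.84 in SKM-1, 2.52-fold and 1.10-fold lower after DAC. The other read 6.16 and 5.96 in MDS-L and 7.35 and 6.61 in SKM-1, 1.15-fold and 1.67-fold lower. The larger difference thus lay in MDS-L by the first and in SKM-1 by the other. The probe set shared with KIF4B was 2.86-fold and 1.10-fold lower, close to the first.

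KIF23 (MKLP1) forms the centralspindlin complex with RACGAP1 and organizes the midzone before the cell divides. It was the only member with its highest level in MDS-L with DMSO, 9.67, and it read 8.32 after DAC. In SKM-1 it read 9.16 and 9.12. With DAC it was 2.54-fold lower in MDS-L. In SKM-1 it was 1.03-fold lower, which turned to a difference of 0.03 above 0 with quantile normalization. Its other probe set was 3.16-fold and 1.22-fold lower.

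KIF20A (MKLP2) carries the chromosomal passenger complex, with the kinase AURKB, from chromosomes to the midzone. It read 6.73 and 5.56 in MDS-L with DMSO and DAC, and 9.38 and 9.25 in SKM-1. The DAC value was 2.25-fold lower in MDS-L, against 1.09-fold in SKM-1. The cell lines stood farther apart in KIF20A than in any other member, with and without DAC.

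KIF20B (MPP1) and KIF14 act at the end of division, in cytokinesis, where KIF14 binds PRC1 and citron kinase. KIF20B went from 7.82 to 6.67 in MDS-L, and in SKM-1 from 8.28 to 7.48, 2.21-fold and 1.74-fold lower. By the probe set that represents each member, this was the most even pair of differences in the group. KIF14 read 8.08 and 7.19 in MDS-L with DMSO and DAC, against 8.31 and 7.96 in SKM-1, 1.86-fold and 1.27-fold lower. Its other probe set was 1.81-fold and 1.79-fold lower, a more even pair than that of KIF20B. For KIF14 the probe sets were alike in MDS-L but not in SKM-1.

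The difference after DAC was more negative in MDS-L than in SKM-1 for 10 of 10 members, by the probe set that represents each. The gap ran from 0.34 for KIF20B to 1.30 for KIF15, KIF23 and KIFC1, with a median of -1.14 (MDS-L minus SKM-1), beside -0.03 over the 11984 genes measured in both lines. That all-gene median lies just below 0, so more genes than not had the more negative difference in MDS-L. In MDS-L 0 of 10 differences, and in SKM-1 6 of 10, were within the spread of probe sets of a gene given above. The share of all genes within that spread was not counted. Whether the cell lines differ in their response was not tested, because each difference rests on 2 arrays.

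**Figure D3:**
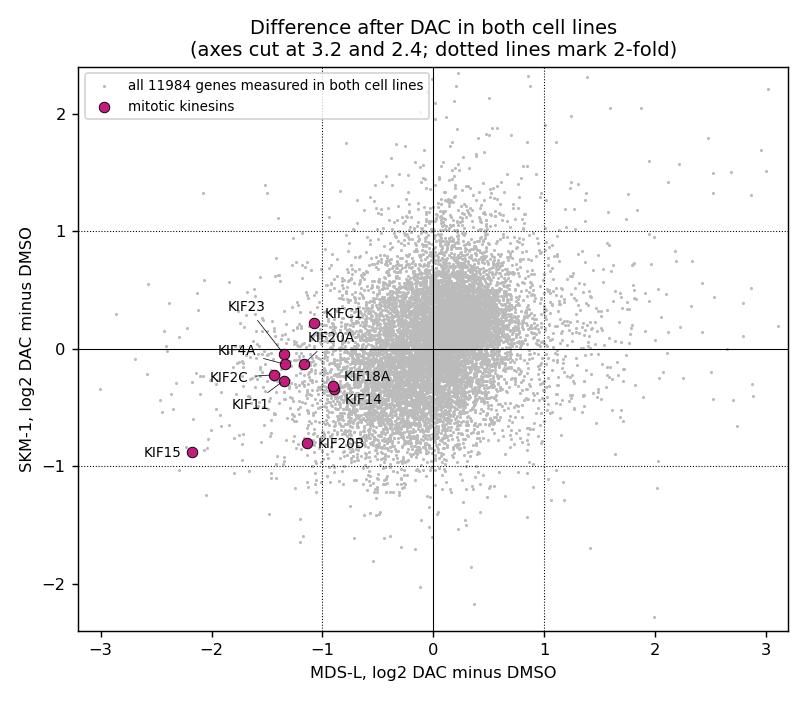
Log2 DAC minus DMSO in MDS-L (x axis) against SKM-1 (y axis) for the 11984 genes measured in both cell lines (grey) and the mitotic kinesins (labelled), with dotted lines at 2-fold and 25 genes outside the axes. The kinesins lie left of 0, 8 of 10 beyond 2-fold on the MDS-L axis and 0 of 10 beyond it on the SKM-1 axis.

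With DMSO alone, 9 of 10 members were lower in MDS-L than in SKM-1 and 4 of 10 at least 2-fold lower, where 12.1% of 13082 genes were. KIF20A was 6.30-fold lower in MDS-L, KIFC1 2.93-fold, KIF4A 2.76-fold and KIF18A 2.33-fold, and KIF23 was 1.42-fold higher. After DAC, 10 of 10 were lower in MDS-L and 7 of 10 at least 2-fold lower, where 15.6% of 13062 genes were. KIF20A was then 12.9-fold lower in MDS-L, KIFC1 7.19-fold and KIF4A 6.35-fold. The members' median difference between the lines (MDS-L minus SKM-1) was -0.95 with DMSO and -2.09 with DAC, beside -0.01 and -0.02 over all genes. Both all-gene medians lie just below 0, so more genes were lower in MDS-L than were higher. Among the 15 probe sets, SKM-1 with DMSO was the highest array for 12, MDS-L with DMSO for both KIF23 probe sets, and SKM-1 with DAC for KIFC1. How often each array is the highest over all probe sets was not counted, so these counts have no baseline. The cell lines, their media and their arrays cannot be told apart in this design.

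A DAC effect common to both cell lines was tested with limma, with cell line as a block and the lines as the only replication. In this design each estimate is the mean of the gene's MDS-L and SKM-1 differences. Estimates were below 0 for 10 of 10 members, which follows from the differences given above and adds no support to them. The share of all genes with an estimate below 0 was not counted. KIF15 had a common log2 difference of -1.52 (standard error 0.36, adjusted p = 0.413 by limma) and KIF20B of -0.97 (standard error 0.23, adjusted p = 0.413). The other members had adjusted p-values by limma up to 0.571. No member passed an adjusted p of 0.05, nor did any gene (0.0% of 11984). At an unadjusted p under 0.05, 2 of 10 members and 1429 of all genes passed. The members' count was 6 with centred differences or a gene's median probe set value, against 3 without a trend. The share of all genes was not counted in those fits, so these counts have no baseline. In the fit as described, 5.83% of all genes had an unadjusted p under 0.05 and a lower value. The fit had 1 residual degree of freedom, and a missed threshold does not show that DAC left a gene as it was.

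Other kinesins that work in mitosis gave a mixed picture in MDS-L. KIF22, a chromosome-bound motor, went from 8.20 to 7.05 in MDS-L, 2.22-fold lower, and from 8.98 to 9.47 in SKM-1, 1.40-fold higher. CENPE, which carries chromosomes to the spindle equator, had log2 differences of -0.77 (MDS-L) and -0.58 (SKM-1), and KIF2A, a microtubule depolymerase, of -0.70 and -0.18. Of the 5 measured genes of this list, 1 passed 2-fold downward in MDS-L but 0 did in SKM-1, with medians of -0.70 and -0.18.

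Kinesins of transport, cilia and other tasks mostly had differences above 0 in MDS-L. Of 21 measured there, 0 were at least 2-fold lower, 2 at least 2-fold higher and 4 below 0, with a median of 0.26, and of 22 in SKM-1, 0 passed 2-fold either way, with a median of 0.09. KIF26A was under background in MDS-L with DMSO and read 6.81 with DAC, at least 3.90-fold higher, and was 1.65-fold higher in SKM-1. KIF17, a motor of dendrites and cilia, was 2.77-fold and 1.27-fold higher. KIF1B, an axonal motor, was 1.95-fold higher in MDS-L but 1.57-fold lower in SKM-1. KIF24 went from 6.02 to below background in MDS-L, at least 1.91-fold lower, and was 1.05-fold higher in SKM-1. Kinesin light chains and accessory proteins stayed within 2-fold, with 5 measured and medians of 0.12 and 0.14. KLC2 was 1.12-fold and 1.48-fold higher, and KIFAP3, the adaptor of KIF3 motors, 1.25-fold and 1.21-fold lower. KIFBP, which binds and restrains several kinesins, was 1.10-fold lower and 1.12-fold higher.

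Of 25 proteins that work with these motors on the spindle and midzone, in MDS-L 12 were lower by at least 2-fold, 0 were higher by as much, with 21 below 0 and a median of -0.86. The other 4 were PSRC1, NUMA1, NEK7 and NEK6, with log2 differences of 0.73, 0.48, 0.48 and 0.28. In SKM-1, 0 of 25 passed 2-fold either way and the median was -0.08. BIRC5 (survivin) and CDCA8 (borealin), subunits of the chromosomal passenger complex that KIF20A carries, were 3.42-fold and 3.34-fold lower in MDS-L, and in SKM-1 1.09-fold lower and 1.02-fold higher. CIT, the citron kinase, went from 6.81 to below background in MDS-L, at least 3.31-fold lower, and was 1.08-fold lower in SKM-1. Among tubulins, the subunits of the track itself, in MDS-L 3 of 10 measured were higher by at least 2-fold, 0 were lower by as much, with 3 of 10 below 0 and a median of 0.31 (0.33 in SKM-1, where 0 of 10 passed). TUBB2A was 5.04-fold higher in MDS-L, against 1.67-fold in SKM-1, TUBB3 2.67-fold and 1.13-fold, and TUBA4A 2.03-fold and 1.02-fold. In MDS-L with DMSO, TUBB2A and TUBB3 read 5.00 and 4.85, close to the background of 4.84, which limits both fold values. TUBB, with the largest negative difference of the list in MDS-L, was 1.48-fold and 1.08-fold lower.

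Among transcription regulators of late cell cycle genes, FOXM1 and E2F1 were lower with DAC in MDS-L but higher with it in SKM-1. FOXM1, an activator of mitotic genes, went from 6.95 to 5.34 in MDS-L, 3.04-fold lower, and from 6.90 to 7.35 in SKM-1, 1.37-fold higher. E2F1, an activator of entry into S phase, was 2.61-fold lower and 1.49-fold higher. CDKN1A (p21), a brake on the cell cycle, was 1.95-fold and 1.76-fold higher. Of 16 measured, 2 were at least 2-fold lower in MDS-L, against 0 in SKM-1, with medians of -0.38 and 0.09.

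The mitotic kinesins stood between the other cell cycle lists in MDS-L. S phase genes had a median of -1.65 in MDS-L, with 14 of 15 at least 2-fold lower, and -0.16 in SKM-1, with 0 of 15. RRM2 was 7.25-fold lower in MDS-L but 1.23-fold higher in SKM-1, TYMS 5.39-fold lower and 1.11-fold higher, and GINS2 5.09-fold and 1.43-fold lower. G2 and M genes outside the kinesins had medians of -1.08 and 0.00, with 8 of 12 at least 2-fold lower in MDS-L, against 1 of 12 in SKM-1. That gene was CENPF, a kinetochore protein of late G2, 2.53-fold lower in SKM-1 against 1.69-fold in MDS-L. CCNA2 (cyclin A) was 3.35-fold lower in MDS-L but 1.16-fold higher in SKM-1, and MKI67, the Ki-67 protein of proliferating cells, 2.36-fold and 1.07-fold lower. How far the share of dividing cells moves with the kinesin values was not tested, as no cell counts are in these data.

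**Figure D4:**
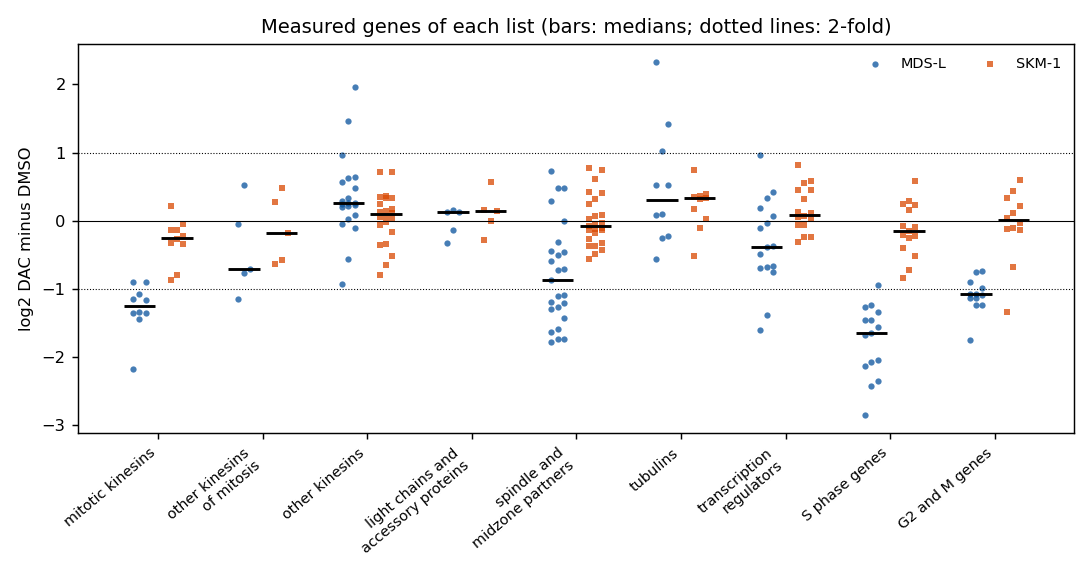
Log2 DAC minus DMSO (y axis) of the measured genes of each list in MDS-L (blue circles) and SKM-1 (orange squares), with black bars at the medians and dotted lines at 2-fold. The mitotic kinesins have medians of -1.25 and -0.25, between the S phase genes (-1.65) and the G2 and M genes (-1.08) in MDS-L.

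Outside the group, the genes whose 4 values, each set against the gene's own mean, lay closest to the members' median profile were CEP55, COQ3, SAMD13, LRRC34 and GPI. Their root mean square distances were 0.07 to 0.08 (log2) over 4 arrays. CEP55, a protein of the midbody where the daughter cells part, read 9.11 and 7.81 in MDS-L with DMSO and DAC, and 10.28 and 9.94 in SKM-1. GPI, an enzyme of glycolysis, read 10.04 and 8.75 in MDS-L and 11.08 and 10.58 in SKM-1. Among the members, KIF11 and KIF2C lay at distances of 0.04 and 0.05, nearer than any gene outside the group. KIF20A lay at 0.84 and KIF23 at 0.69, with 3959 and 2280 genes outside the group nearer. The members' own values set the median profile, so the nearness of a member to it was partly fixed in advance. With 4 arrays such likeness is a description.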

How the data were processed

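The authors deposited log2 expression values of 49395 probe sets on 4 PrimeView arrays. The methods name RMA in Partek Genomics Suite and RNeasy extraction. The submitters' notes name MAS5 and Trizol, and versions are not given in the sources used here. The deposited values ran from 2.11 to 14.99, and after sorting the arrays lay within 0.18 of each other, so no further normalization was applied. GEO's platform annotation gave 44994 probe sets 1 symbol, and 1832 with several symbols were left out. The probe set of highest mean stood for each gene, which was measured in a cell line if above background on at least 1 of 2 arrays, and was raised to background where below it. Differences of at least 2-fold were counted without a test. The common effect was fitted with limma 3.58.1 (R 4.3.3), with a trend. Its p-values are two-sided, adjusted by Benjamini-Hochberg over 11984 genes. Other steps used Python 3.11.15, pandas 2.3.3 and numpy 2.4.6, and figures matplotlib 3.10.9. Counts and fit were tried on simulated data with the same change set in both cell lines. That trial does not cover cell lines that differ in their change, nor variation between cultures. Precision is limited by background signal and by having 4 arrays. Promoters and coordinates are RefSeq's (GRCh38.p14). Members and lists were chosen with earlier results of these data known. Named are all members, the 3 genes of each list with the largest difference in either line, other kinesins past 2-fold, the markers, and the 5 nearest profiles.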

Additional observations from a re-analysis of the deposited data

Results flagged for a closer look

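Of the 10 kinesins followed, KIFC1 alone went opposite ways after DAC in the cell lines, lower in MDS-L (log2 difference -1.08) and higher in SKM-1 (0.22). The MDS-L difference minus the SKM-1 difference was -1.30. Each rests on 1 array per condition and was not tested, and KIFC1 has 1 probe set. Among the other kinesins of mitosis, KIF22, KIF18B and STARD9 also differed in sign between the lines.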

How the results depend on the processing

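The members' medians and 2-fold counts kept their direction, and their size to within 1.5-fold or the spread between probe sets, with quantile normalization, centred differences, array medians as background, no raised values, a gene's median probe set value, and leaving out probe sets named with _s_at or _x_at (9 members left). The exceptions follow. With background at the 99th percentile of olfactory receptors (6.42 to 6.88), 3 members were at least 2-fold lower in MDS-L (3.04% of 9241 genes). The members' median there was -0.92, and the median gap between the lines was -0.53. KIF15 then had a value of -0.97 in MDS-L and KIF4A of -0.63, while KIF20A and KIFC1 had 0.15 and 0.20, where the raised level, higher on the DAC array, stands in for the measured value. At 1.5-fold, 2 members were lower in SKM-1 (9.15% of all genes), and at 3-fold 1 was lower in MDS-L (0.7% of all genes). With quantile normalization KIF23 was at 0.027 in SKM-1, and 8 of 10 members were below 0 there. A median of its probe sets moved KIF4A to -0.77 in MDS-L and -0.44 in SKM-1. The limma fit was run with quantile normalization, centring, no raised values, median probe set values, no trend and robust settings. There 0 members passed, 2 to 6 had an unadjusted p under 0.05, and members' adjusted p-values ran from 0.230 to 0.637. The share of all genes under that unadjusted p was not counted in these fits. The limma fit pairs DAC with DMSO within each line through the cell line block. Single arrays and the distance from background limit every value, most for KIF20A, KIFC1 and KIF15, at 5.56, 5.61 and 5.67 in MDS-L with DAC where background was 5.09.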
